A study of Mus musculus with 3 samples.

Results

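Choroid plexus epithelial cells made up 1279 of the 13964 barcodes with at least 200 genes in single-cell libraries of the mouse medial vestibular nucleus (MVN). They were selected on their transcripts: a barcode was taken where Ttr, the gene of the thyroid hormone carrier transthyretin, gave 5% or more of all UMIs (unique molecular identifiers, one per captured RNA molecule) and where fewer than 3 of 6 genes of motile cilia (Ccdc153, Tmem212, Foxj1, Dynlrb2, Rsph1 and Enkur) had a UMI. Ttr and these 6 genes therefore describe the selection and are no finding. By library there were 240 of 4813 barcodes in ULI, 1018 of 4544 in ULC and 21 of 4607 in control.

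The libraries came from mice of the strain C57BL/6 in the labels and C57BL/6J in the methods, operated at postnatal day 20, with tissue taken 1 day later. ULI was the MVN on the side of a unilateral labyrinthectomy (UL), in which the vestibular organ of the right inner ear was destroyed. ULC was the opposite MVN of mice with UL, and control was the MVN of sham-operated mice, in which the bulla of the ear was opened without UL. All 3 libraries carry labyrinthectomy in their treatment field, and control was read from its source name. Tissue came from 10 control mice and 11 mice with UL, pooled into 1 library per condition, so the values below compare 3 libraries. They carry 95% intervals that cover counting error only, and no p-value is given. The MVN was dissected under a microscope from brain slices, and choroid plexus is not part of it.

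The choroid plexus is a fold of vascular tissue in the brain ventricles, covered by a single layer of epithelial cells. These cells make cerebrospinal fluid by moving ions and water from blood to ventricle, seal the blood-cerebrospinal fluid barrier with tight junctions, and secrete carrier proteins. The MVN lies in the floor of the fourth ventricle, which has its own plexus.

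Plexus cells were 4.99% of the barcodes in ULI (4.39 to 5.64%, exact binomial interval), 22.4% in ULC (21.2 to 23.6%) and 0.456% in control (0.282 to 0.696%). They held 7.28% of the UMIs of the barcodes kept in ULI, 23.3% in ULC and 0.622% in control. The ULC share was above the ULI share, and the ULI share above the control share, beyond counting error. How much plexus each dissection carried was not recorded in the sources used here, and dissection, library and condition cannot be told apart in these shares.

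The plexus cells fell into a shallow and a deep set (histogram of UMIs per cell). The median cell had 3572.5 UMIs in ULI, 724 in ULC and 6419 in control, but 107 cells (44.6%) of ULI, 734 (72.1%) of ULC and 7 (33.3%) of control had fewer than 2000 UMIs. Above that depth the medians were 7723 UMIs in ULI, 7203.5 in ULC and 11762 in control. The deep cells held 1174089 of 1258233 plexus UMIs in ULI and 2378063 of 2909413 in ULC, so sums over cells mostly describe them. Shallow cells carried plexus transcripts too, though not all at the level of deep cells. Enpp2 stood at 66862 CPM (UMIs per 1e6 UMIs) in shallow and 66321 CPM in deep ULI cells, and at 58331 and 54008 CPM in ULC. Kl was at 1081 CPM in shallow and 1239 CPM in deep ULI cells, and at 973 and 955 CPM in ULC. Clic6 was lower in shallow cells, at 618 against 813 CPM in ULI and 489 against 735 CPM in ULC.

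**Figure D1:**
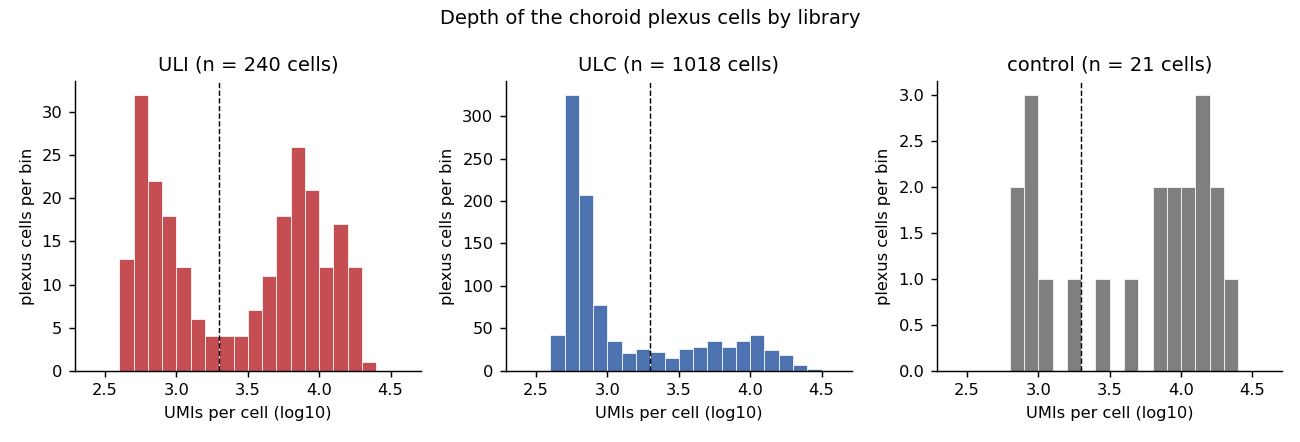
UMIs per choroid plexus cell on a log10 scale, as the number of cells per bin in ULI (240 cells), ULC (1018 cells) and control (21 cells), each with its own vertical axis. The dashed line marks 2000 UMIs, with 107 ULI, 734 ULC and 7 control cells below it.

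Few barcodes lay near the Ttr threshold. In ULI, 10 barcodes had Ttr at 4 to 5% of UMIs and 16 of the members at 5 to 6%. In ULC these numbers were 36 and 32, and in control 1 and 0. The barcodes just outside were rich in mitochondrial transcripts, with a median of 42.1% of UMIs in ULI and 26.7% in ULC, against 18.5% and 24.7% just inside. Among all members Ttr took a median of 10.8% of UMIs in ULI, 15% in ULC and 12.1% in control.

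The label was checked with 9 plexus markers that the rule does not use. At least 2 of the 9 had a UMI in 232 of 240 ULI cells, 962 of 1018 ULC cells and 21 of 21 control cells. Depth differs between the libraries, so each cell was thinned to 1000 UMIs, which left 155 ULI, 366 ULC and 16 control plexus cells. Enpp2, which encodes the lysophosphatidic acid-producing enzyme autotaxin, then had a UMI in 99.4% of ULI, 99.5% of ULC and 87.5% of control plexus cells. Otx2, the homeodomain factor that plexus cells need for their development, had one in 66.5% of ULI (58.4 to 73.8%), 49.5% of ULC (44.2 to 54.7%) and 62.5% of control cells (35.4 to 84.8%). Before thinning, Otx2 was seen in 75% of ULI, 54.6% of ULC and 90.5% of control plexus cells. Microglia, which lack Otx2, had it at 1000 UMIs in 0.203%, 0.404% and 0.0999% of cells in ULI, ULC and control. Ependymal cells, with 3 or more cilium genes and Ttr under 5%, had it in 0%, 4.76% and 5.13%. Barcodes with Ttr at 5% or more and 3 or more cilium genes were left out by the rule. These had Otx2 in 2 of 4 in ULI, 18 of 29 in ULC and 18 of 22 in control. Otx2 therefore did not set the members apart from the barcodes left out. Median depths before thinning were 2415, 2635.5 and 3194 UMIs for microglia. For Enpp2 the microglial shares were 12.1% in ULI, 28.3% in ULC and 11.1% in control. The ependymal shares were 14.7%, 38.1% and 10.3%, so a single Enpp2 UMI marks no cell as plexus.

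**Figure D2:**
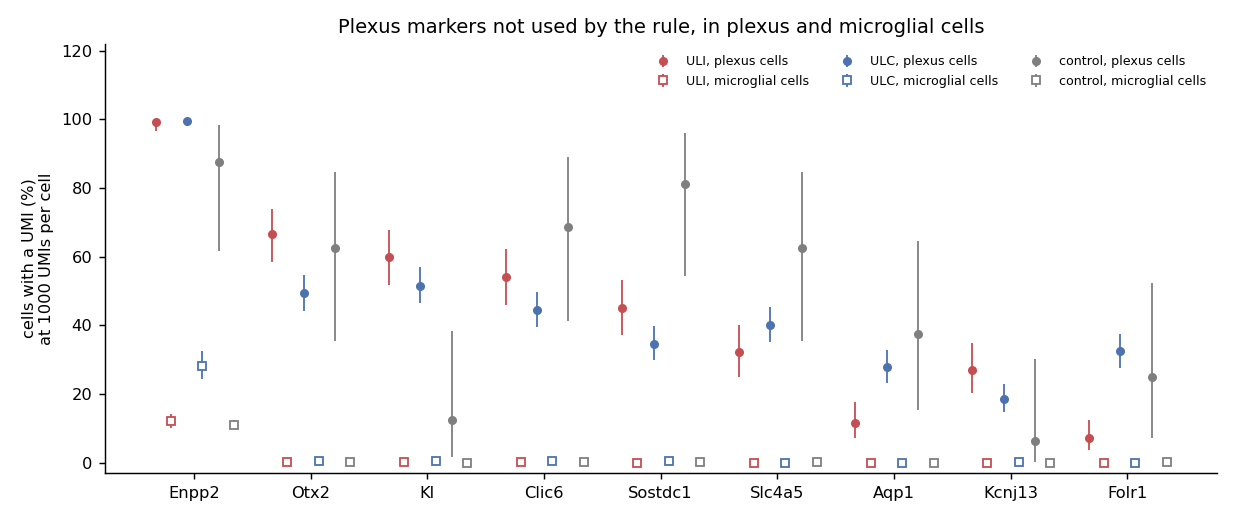
Percent of cells with a UMI of 9 plexus markers after thinning to 1000 UMIs per cell, with exact 95% binomial intervals, for plexus cells (filled circles) and microglial cells (open squares) of ULI, ULC and control. Otx2 was seen in 66.5% of ULI, 49.5% of ULC and 62.5% of control plexus cells and in under 1% of microglial cells.

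Markers of other cell types were found in some plexus cells. At least 3 of 7 oligodendrocyte markers had a UMI in 67 ULI (27.9%), 167 ULC (16.4%) and 11 control plexus cells (52.4%), and the 7 genes together gave 1284, 1267 and 754 CPM. In all other barcodes of ULI, ULC and control they gave 61752, 55081 and 85098 CPM. No plexus cell had 3 of 6 macrophage markers or 3 of 9 neuronal markers. The 7 endothelial markers together gave 684 CPM in ULI, 412 in ULC and 239 in control plexus cells, and 526, 1179 and 967 CPM in the other cells. Of these, Cldn5 was at 0 UMIs in ULI and control plexus cells and at 13 UMIs in ULC, while Itm2a stood at 551 CPM in ULI, 317 in ULC and 102 in control. The microglial list reached 3 markers in 2 ULI, 8 ULC and 1 control cells. The smooth muscle gene Acta2 had 139 of its 202 ULC UMIs in 1 cell. The part of these transcripts in the results below was not tested, beyond the values without such cells given at the end.

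All barcodes that are not members are called other cells here, and they include 4 barcodes of ULI, 29 of ULC and 22 of control with Ttr at 5% or more that the cilium limit left out. Ttr was 0.0583% of the UMIs of other cells in ULI, 0.710% in ULC and 0.139% in control. Without those barcodes it was 0.0357%, 0.155% and 0.0144%, a comparison added after seeing the data. The genes with the largest ratio of plexus to other cells, by the smaller of the ULI and ULC ratios, were Gmnc, Defb11, Prr32, Igfbp2, Kcne2, Ttr, Prlr, Sostdc1, Aqp1, Kl, Prcd, Krt18, AC154640.1, Kcnj13 and F5. Gmnc, a regulator of multiciliated cell formation, stood at 133 CPM in plexus against 1.25 CPM in other ULI cells, and at 105 against 4.59 CPM in ULC. Kcne2, a potassium channel subunit of the plexus, was 203-fold above the other cells in ULI, 20.1-fold in ULC and 120-fold in control. Across the 15 genes the lowest and highest ratios were 58.2 and 403 in ULI, and 16.9 and 22.9 in ULC. The ratio of 403 was that of Krt18, which had only 5 UMIs in the other cells of ULI. Ttr is among the 15 because it selected the cells. Against other cells with Ttr under 5% the ratio of Kcne2 was 297 in ULI and 87.4 in ULC, and that of Kl 141 and 41.4. Igf2, a growth factor that choroid plexus is known to make, was hardly seen: 0 UMIs in ULI and control plexus cells, which allows up to 2.38 CPM in ULI and 18.0 CPM in control, and 2 UMIs in ULC.

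Promoters are shown for the factor and for the marker on which the libraries differed most from control. Kl encodes Klotho and lies on chr5 from 150952607 to 150993817 on the plus strand (mm10). Otx2 lies on chr14 from 48657677 to 48673819 on the minus strand. RefSeq promoters of 300 bases (GRCm38.p6) were at hand for 5 of the 10 plexus markers, with 8 promoters in all. The letters TAATCC or, on the other strand, GGATTA, a core that OTX factors bind, were in 1 of these 8, at base 40 of an Otx2 promoter, and in 2320 of 32851 promoters of the table (7.06%). This is a match of letters and not a site. The match is in capitals below, and the Kl promoter holds none.
Kl, chr5:150952357-150952656, plus strand: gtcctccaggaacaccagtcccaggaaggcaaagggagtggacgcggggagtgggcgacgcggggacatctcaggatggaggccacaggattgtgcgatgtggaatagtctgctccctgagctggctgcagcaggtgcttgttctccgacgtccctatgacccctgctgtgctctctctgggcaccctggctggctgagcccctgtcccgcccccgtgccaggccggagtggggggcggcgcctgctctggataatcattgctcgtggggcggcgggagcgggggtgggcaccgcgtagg
Otx2, chr14:48665060-48665359, minus strand: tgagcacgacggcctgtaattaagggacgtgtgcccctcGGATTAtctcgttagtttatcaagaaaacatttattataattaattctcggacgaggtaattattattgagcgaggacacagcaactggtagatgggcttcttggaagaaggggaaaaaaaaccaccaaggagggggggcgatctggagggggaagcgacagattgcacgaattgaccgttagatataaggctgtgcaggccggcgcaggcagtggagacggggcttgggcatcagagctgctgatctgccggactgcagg

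ULI was set against ULC to compare plexus cells of the 2 sides after UL. Most genes were alike to within 2-fold, and those that were not were mostly lower in ULI. Of 5179 genes that reached 100 UMIs over ULI and ULC, 87 (1.68%) were at least 2-fold higher and 676 (13.1%) at least 2-fold lower in ULI, with a median log2 ratio over all of 0.12. The same genes were lower outside the plexus: 582 of the 676 (86.1%) were also 2-fold lower in the other cells of ULI than of ULC, where their median log2 ratio was -2.11. With other cells of Ttr under 5% alone, 577 of the 676 (85.4%) were lower. For plexus genes, a lower ratio in the other cells did not depend on a lower ratio in plexus cells. The 10 plexus markers had a median log2 ratio of 0.24 in plexus cells and -2.76 in the other cells. Otx2, at 0.67 in plexus cells, was at -2.73 in the other cells and at -1.60 in those with Ttr under 5%. For such genes the other-cell ratio cannot show that a plexus difference is shared. Whether plexus RNA in other barcodes has a part was not tested. The 676 genes had transcripts with a median GC content of 55.4%, against 47.2% among genes under 2-fold. Genes were cut by GC content into 5 bins of equal size. In the bin lowest in GC 0.681% of genes were 2-fold lower in ULI, and in the bin highest in GC 43.3%. Among the 2568 genes at or below the median GC content, a split chosen after seeing the data, 50 were 2-fold higher and 39 2-fold lower in ULI. The part of base composition in the single genes below was not tested.

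**Figure D3:**
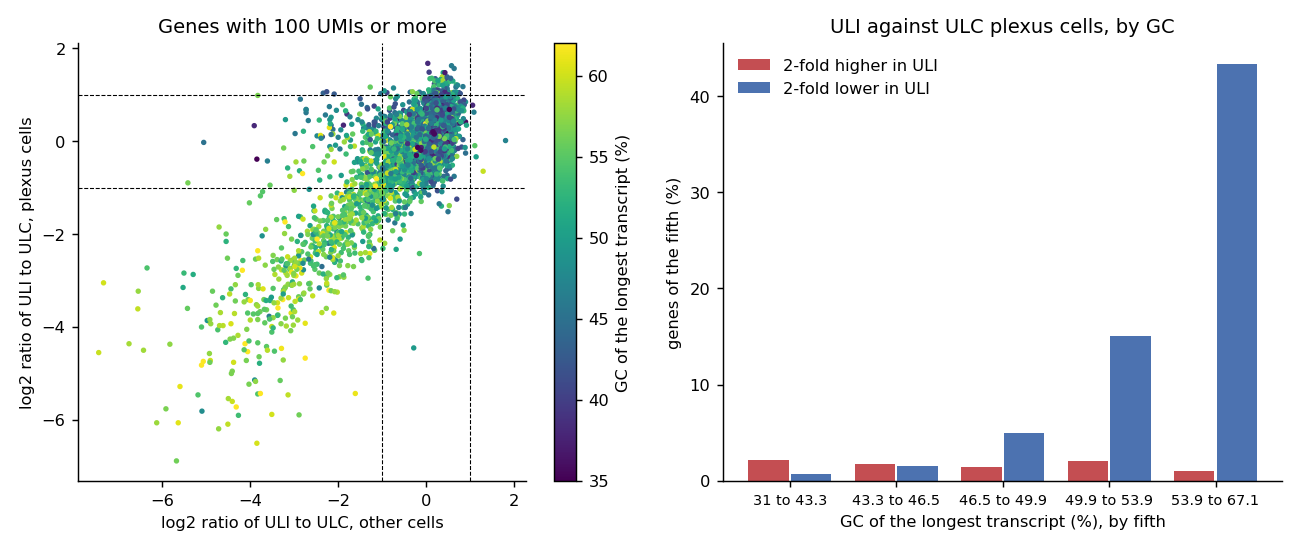
Left, log2 ratio of ULI to ULC in plexus cells against that in all other cells for genes with at least 100 plexus UMIs, coloured by the GC percent of the longest transcript, with dashed lines at 2-fold. Right, percent of the genes in each of 5 bins of GC that were 2-fold higher or lower in ULI plexus cells. The share of lower genes was 0.681% in the lowest and 43.3% in the highest bin, and 582 of the 676 lower genes were 2-fold lower in the other cells as well.

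Ppp1ca, a catalytic subunit of protein phosphatase 1, had 1 UMI in ULI and 272 in ULC plexus cells, a log2 ratio of -6.88 (-12.19 to -4.39), and was at -5.68 in the other cells. The lysosomal gene Ctsa had 6 and 602 UMIs, at -5.44 (-6.89 to -4.31) in plexus and -3.83 in other cells. Polr2f, Cpt1c, Ninj1, Rnf40, Apbb1, Ube2m and Wdtc1 were also among the 10 lowest, at -6.50 to -5.46. These 9 genes were lower in the other cells too, at log2 ratios of -5.68 to -2.89.

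The genes highest in ULI were much less far apart. Fbxo30, an F-box protein, stood at 49.3 CPM in ULI and 15.5 CPM in ULC, a log2 ratio of 1.67 (1.09 to 2.26) against 0.04 in the other cells. Leaving out genes known only by a clone name, Vps13b, Grpel2, Zfp938, Cldn11, Pigc, Hspa1a, Rab4a, Smim8 and Idnk followed at 1.62 to 1.34. Cldn11, a tight junction gene of myelin, was at 145 CPM in ULI and 52.6 CPM in ULC plexus cells, beside 5272 and 4036 CPM in the other cells. Hspa1a, an inducible heat shock protein, was at 117 CPM (98.7 to 137) in ULI and 45.0 CPM (37.6 to 53.4) in ULC. Its highest 10 cells held 63.3% of its UMIs in ULI and 42.0% in ULC.

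Of the products that plexus cells secrete, most were within 2-fold on the 2 sides. Of 19 secreted proteins and related genes with enough UMIs, 0 were 2-fold higher and 3 (15.8%, against 13.1% of all genes) 2-fold lower in ULI, and the median log2 ratio was 0.28 (all genes with 20 UMIs or more: 0.03). Enpp2 stood at 66357 CPM in ULI and 54798 CPM in ULC, a log2 ratio of 0.28 (0.26 to 0.29). Kl was at 1229 CPM in ULI and 958 CPM in ULC. Htr2c, the serotonin receptor of the plexus, was at 607 and 323 CPM, a log2 ratio of 0.91 (0.77 to 1.05) and short of 2-fold. Igfbp2, a binding protein of insulin-like growth factors, was at 850 CPM in ULI and 1383 CPM in ULC. The 3 lower genes were the protease inhibitor Cst3 at 1003 and 2656 CPM, the chaperone Clu at 680 and 1539 CPM, and the angiotensin-converting enzyme Ace at 180 and 453 CPM. In the other cells these 3 were at log2 ratios of -1.19, -2.16 and -4.02, and at -1.20, -1.53 and -3.39 in those with Ttr under 5%.

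Of 22 genes of ion and water transport, 0 were higher and 6 (27.3%, against 13.1% of all genes) lower in ULI, with a median of -0.25. The Na-K-Cl cotransporter Slc12a2 was at 1659 CPM in ULI and 1719 CPM in ULC, with a ratio not distinguishable from 0 (-0.13 to 0.02). The sodium bicarbonate transporter Slc4a10 stood at 1048 and 789 CPM, the carbonic anhydrase Car2 at 2298 and 1687 CPM, and Clic6, an intracellular chloride channel protein, at 800 and 690 CPM. Aqp1, the water channel of the ventricular membrane, was at 182 CPM (159 to 207) in ULI and 411 CPM (388 to 435) in ULC. Slc4a2, Trpv4, Fxyd1 and Slc12a4 were also 2-fold lower, at log2 ratios from -3.09 to -1.06. Aqp1 and these 4 genes were lower in the other cells of ULI as well, at -4.34 to -2.99, and at -4.27 to -2.11 in those with Ttr under 5%. Plexus markers not lower in ULI plexus cells had negative ratios in the other cells too, as given above.

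Among vitamin, metal and solute carriers 0 of 21 were higher and 6 (28.6%, against 13.1% of all genes) lower. The proline transporter Slc6a20a was at 572 CPM in ULI and 478 CPM in ULC, and the copper transporter Slc31a1 at 582 and 531 CPM. The folate receptor Folr1 had 90 UMIs in ULI and 1376 in ULC, or 71.5 CPM (57.5 to 87.9) and 473 CPM (448 to 499). In deep cells Folr1 had a UMI in 32.3% of ULI and 75.4% of ULC cells. Slc2a1, Slc29a4, Slc19a1 and Slc16a8 were lower too, at -4.76 to -1.20. In the other cells with Ttr under 5%, Folr1 had 3 UMIs in ULI and 67 in ULC.

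Junction genes and transcription factors held no gene 2-fold apart between the sides, in 10 and 7 genes measured. Of all genes 14.7% were 2-fold apart in either direction, and lists this short can hold none at that share. Cldn1 was at 673 CPM in ULI and 634 CPM in ULC, and Cldn2, which forms a paracellular channel for cations, at 574 and 417 CPM. The keratin gene Krt18 was at 126 and 235 CPM. Otx2 was at 1440 CPM in ULI and 903 CPM in ULC, Msx1 at 453 and 396 CPM, Lmx1a at 109 and 88.3 CPM, and Gmnc at 133 and 105 CPM. The forebrain factors Emx2 and Lhx2 had 0 UMIs in the plexus cells of each library, which allows up to 2.38 CPM in ULI.

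**Figure D4:**
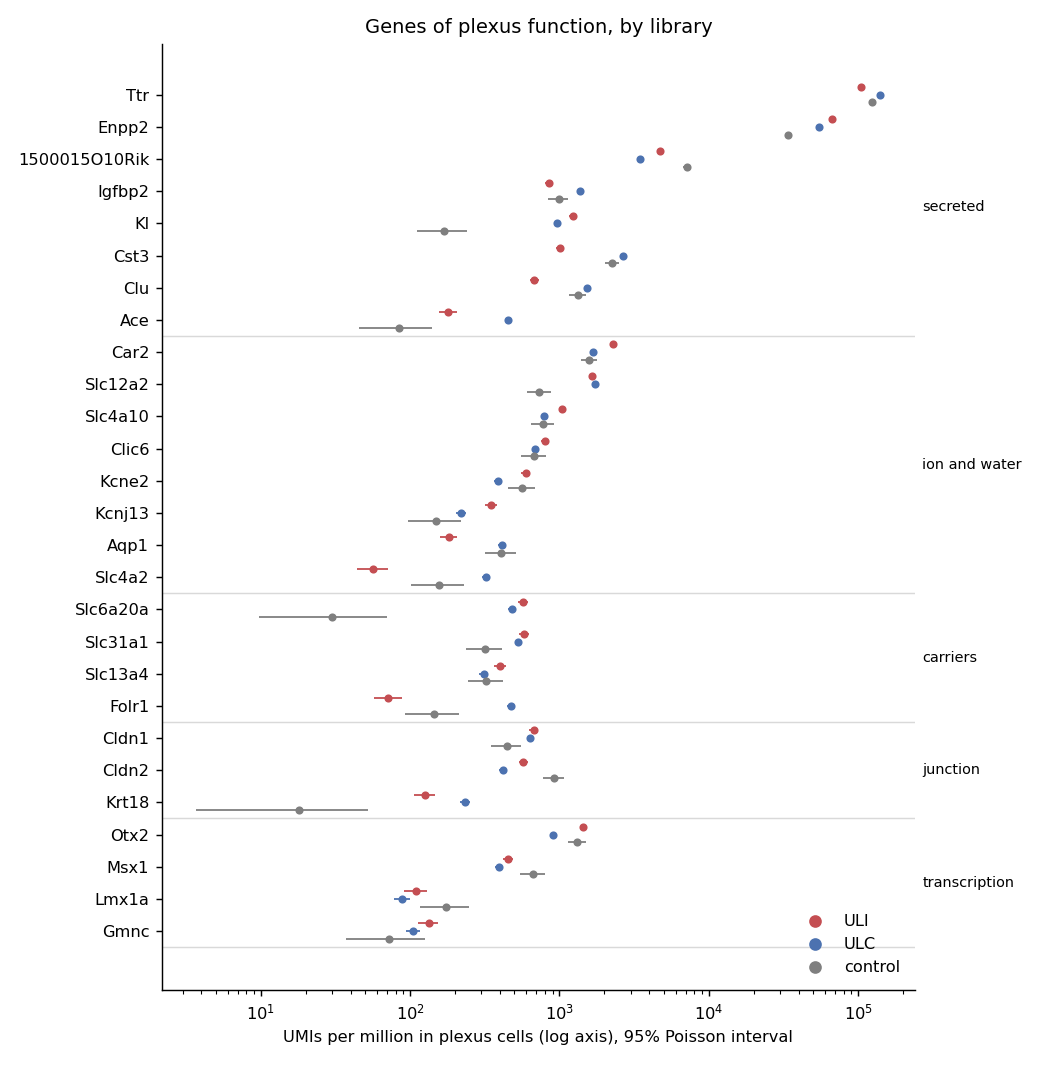
CPM of genes of plexus function in the summed plexus cells of ULI, ULC and control, on a log axis with exact 95% Poisson intervals, grouped as secreted products, ion and water transport, carriers, junctions and transcription factors. Enpp2 stood at 66357 CPM in ULI and 54798 CPM in ULC, and Folr1 at 71.5 and 473 CPM.

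Among genes that respond to activity and stress, those 2-fold apart between the sides were mostly lower in ULI, as among all genes (676 lower and 87 higher). Of 16 immediate early genes 0 were higher and 4 (25%, against 13.1% of all genes) lower in ULI (Fosb, Ier2, Klf6 and Nr4a1). In the other cells these 4 were at log2 ratios of -3.39, -2.75, -0.32 and -0.95. Fos was at 463 CPM in ULI and 416 CPM in ULC, and Egr1 at 250 and 234 CPM. None of 9 glucocorticoid-responsive genes was 2-fold apart (against 14.7% of all genes), with Sgk1 at 717 and 643 CPM and the median at -0.31. Of 11 heat shock genes only Hspa1a was 2-fold higher (9.09%, against 1.68% of all genes) and 0 were lower. Of 7 interferon response genes Ifi27 alone was lower (14.3%, against 13.1% of all genes), at 182 and 384 CPM, with a log2 ratio of -1.35 in the other cells. The cytokines Il1b, Tnf and Il6 had 1, 4 and 0 UMIs in ULI and 5, 5 and 0 UMIs in ULC. Lbp, which encodes a lipopolysaccharide-binding protein, was at 58.8 CPM in ULI and 420 CPM in ULC, and at 0.50 and 13.1 CPM in the other cells with Ttr under 5%. The metallothionein Mt3 was at 144 and 990 CPM, and Mt1 at 46.9 and 82.5 CPM. In the other cells Mt3 and Mt1 were at log2 ratios of -4.18 and -0.37.

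In secretory, mitochondrial and lipid pathways most of the genes 2-fold apart were lower in ULI, as among all genes (676 lower and 87 higher). Of 22 genes of the endoplasmic reticulum, Pdia3, a disulfide isomerase, was higher at 466 CPM in ULI and 233 CPM in ULC (4.55%, against 1.68% of all genes). Creb3l1 and Kdelr2 were lower (9.09%, against 13.1% of all genes). Of 20 nuclear genes of the respiratory chain 5 (25%, against 13.1% of all genes) were lower (Sdhb, Cox4i1, Uqcrc1, Cox7c and Ndufv1). None was higher, and the median was 0.35. Cox4i1, a subunit of cytochrome oxidase, stood at 246 CPM in ULI and 1646 CPM in ULC, while Ndufa4 was at 1380 and 803 CPM. Of 15 antioxidant and iron genes the glutathione peroxidases Gpx1, Gpx3 and Gpx4 were lower (20%, against 13.1% of all genes). Of 10 lipid genes Pltp, Lrp1 and Fdft1 were lower (30%, against 13.1%). Tekt1 was the only one of 11 cilium genes outside the rule to be 2-fold lower (9.09%, against 13.1% of all genes). No mitochondrial transcript of 8, nuclear RNA of 4 or growth factor signalling gene of 13 was 2-fold apart, against 14.7% of all genes. Across the 19 lists, 230 genes were measured, 2 (0.870%) were higher and 36 (15.7%) lower, a share close to the 13.1% of all genes. Of the 36, 34 were 2-fold lower in the other cells (32 in those with Ttr under 5%), and 33 had a GC content above the median of the measured genes.

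Comparison with control rests on 21 control cells and 167061 UMIs. Of 2134 genes with 100 UMIs in ULI and control together, 236 (11.1%) were at least 2-fold higher and 149 (6.98%) lower in ULI. Of 4241 genes in ULC and control, 722 (17.0%) were higher and 356 (8.39%) lower in ULC. Of the 236 and 149 genes of ULI, 29 and 38 were 2-fold apart in the same direction in the other cells. Of the 722 and 356 of ULC, 318 and 22 were. In the bin highest in GC, 283 of 841 genes were higher in ULC, against 73 of 842 in the lowest. For genes lower in ULI these shares were 18.2% and 0.943%. Genes higher in ULI (34 of 423 and 43 of 424) and lower in ULC (54 of 841 and 66 of 842) differed less by GC. ULI and ULC share this control, and 125 of the 1991 genes measured in both comparisons were 2-fold above it in both libraries and 53 below it. The genes named next were chosen after these values were seen, as those furthest from control in both.

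Plexus cells of control had little Kl. Kl, whose product Klotho is a coreceptor of the hormone FGF23, stood at 1229 CPM in ULI, 958 CPM in ULC and 168 CPM in control, where 28 UMIs came from 5 of 21 cells. In the other cells with Ttr under 5% Kl was at 8.69 CPM in ULI, 23.1 CPM in ULC and 0.910 CPM in control. Among deep cells it had a UMI in 94.7% of ULI, 91.5% of ULC and 35.7% of control cells. Slc6a20a stood at 572, 478 and 29.9 CPM, a log2 ratio to control of 4.26 (3.03 to 5.88) in ULI and 4.0 (2.77 to 5.62) in ULC. Dlk1, a transmembrane protein related to Notch ligands, had 526 UMIs in ULI, 1481 in ULC and 0 in control, which makes it at least 23.3-fold higher in ULI and at least 28.3-fold higher in ULC against 3 counts over the control cells. Without the 10 cells of each library with most Dlk1, a step added after seeing the data, the bounds were 3.5-fold in ULI and 12.9-fold in ULC. At 1000 UMIs per cell Dlk1 was seen in 11.6% of ULI, 9.56% of ULC and 0 of 16 control cells, which allows a share of up to 18.8%, so a difference in the share of cells was not detectable. Miga1, Krt18 and Gstm2 were above control in the same way, at 330, 126 and 139 CPM in ULI and 326, 235 and 136 CPM in ULC, with 3 UMIs or 18.0 CPM each in control. In the other cells with Ttr under 5%, Dlk1, Slc6a20a, Miga1 and Gstm2 were also above control in both libraries. There Dlk1 was at 10.6, 10.2 and 0.759 CPM in ULI, ULC and control. Slc6a20a was at 70.7, 37.4 and 23.4 CPM, Miga1 at 140, 147 and 47.2 CPM, and Gstm2 at 7.82, 10.9 and 4.93 CPM. Krt18 was above control there in ULC alone, at 0.0625, 2.28 and 0.607 CPM. Of the 10 plexus markers, Kcnj13 and Kl were 2-fold higher in ULI than in control (20%, against 11.1% of all genes). Aqp1, Slc4a5, Folr1 and Sostdc1 were 2-fold lower in ULI (40%, against 6.98%). In ULC, Kl and Folr1 were 2-fold higher than in control (20%, against 17.0% of all genes) and Sostdc1 lower (10%, against 8.39%). Clic6 was at 800, 690 and 676 CPM, and Otx2 at 1440, 903 and 1311 CPM in ULI, ULC and control.

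Other genes had a higher CPM in control plexus cells than in those of ULI and ULC. Kdr, the receptor of vascular endothelial growth factor, stood at 50.1 CPM in ULI, 23.7 CPM in ULC and 497 CPM in control, a log2 ratio to control of -3.31 (-3.81 to -2.82) in ULI and -4.39 (-4.87 to -3.91) in ULC. Of 7 endothelial markers, Cldn5, Flt1, Pecam1 and Cdh5 were at 0 UMIs in the control plexus cells, and Itm2a, Slco1a4 and Ly6c1 had 17, 22 and 1 UMIs. Whether endothelial RNA has a part in the Kdr level was not tested. Mia, which encodes a secreted SH3 domain protein, was at 74.7, 43.7 and 593 CPM. The hindbrain factor Zic4 was at 61.2, 69.1 and 293 CPM, the matrix gene Ecm2 at 367, 298 and 1131 CPM, and the YAP target Cyr61 at 69.1, 135 and 533 CPM. Mt1 and Ociad2 were lower in both libraries than in control as well, at 46.9 and 156 CPM in ULI, 82.5 and 177 CPM in ULC, and 251 and 521 CPM in control. In the other cells with Ttr under 5%, Mia was also highest in control, at 1.56, 3.69 and 12.3 CPM in ULI, ULC and control. Kdr was highest in control there too, at 32.8, 64.3 and 96.1 CPM. Zic4, Ecm2, Cyr61 and Ociad2 were lowest in control in these cells, and Mt1 lay between ULI and ULC.

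The pattern was also present in barcodes that the cilium limit left out. With Ttr at 5% or more but 3 or more cilium genes there were 4 barcodes in ULI, 29 in ULC and 22 in control, with medians of 7449.5, 12579 and 12730.5 UMIs. In these, Kl was at 3031 CPM in ULI, 755 CPM in ULC and 13 CPM in control, and Slc6a20a at 547, 346 and 13 CPM. Kdr was at 0, 36.2 and 746 CPM and Mia at 124, 85.3 and 882 CPM. Over all 43 control barcodes with Ttr at 5% or more, Kl had 32 of 474200 UMIs, Dlk1 0, Kdr 312 and Mia 370. Ependymal cells, chosen by 3 or more cilium genes and Ttr under 5%, had Mia at 86.2 CPM in ULI, 114 CPM in ULC and 319 CPM in control, and Kdr at 61.6, 56.9 and 236 CPM. The control plexus cells came from other mice than those of ULI and ULC. Differences in the mice, in the part of the ventricles sampled and in the state of the plexus cannot be told apart with 1 library per condition.

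**Figure D5:**
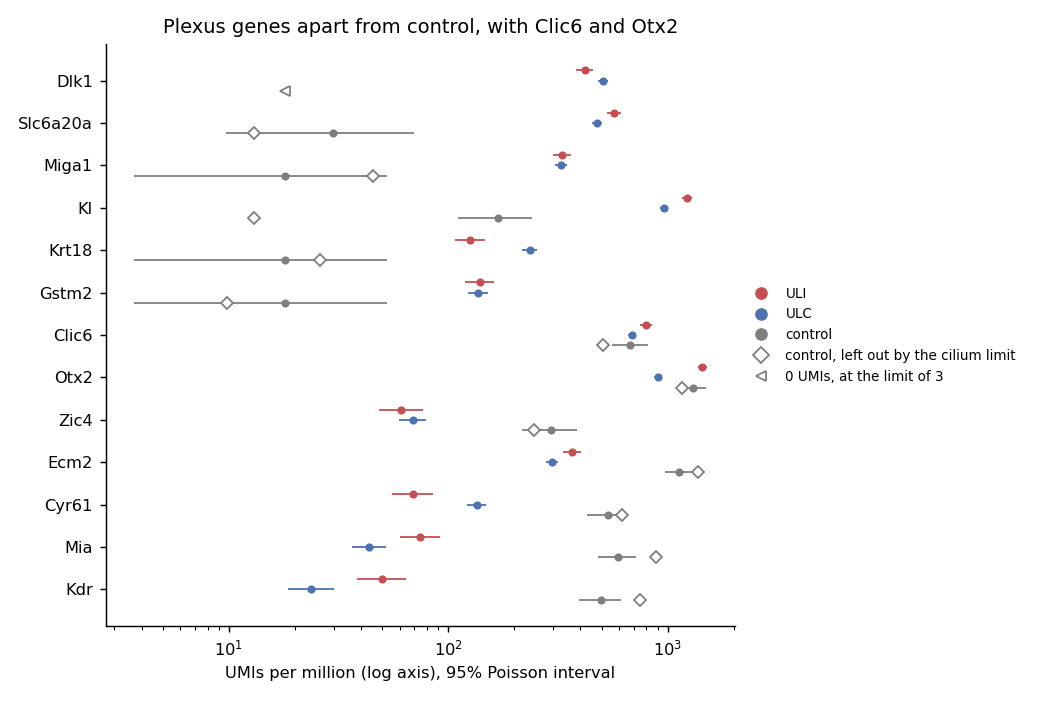
CPM of genes furthest from control in both ULI and ULC, with Clic6 and Otx2 for comparison, in the summed plexus cells of ULI, ULC and control, on a log axis with exact 95% Poisson intervals. Open diamonds are the 22 control barcodes left out by the cilium limit, and the open triangle marks the limit of 0 Dlk1 UMIs in control. Kl stood at 1229 CPM in ULI, 958 CPM in ULC and 168 CPM in control, and Kdr at 50.1, 23.7 and 497 CPM.

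The plexus cells also varied among themselves. Dlk1 was confined to a minority: 36 of 240 ULI cells and 150 of 1018 ULC cells had a UMI, and the 10 highest cells held 86.5% of its UMIs in ULI and 56.7% in ULC. Among deep cells 17.3% of ULI and 19.4% of ULC cells had it, and the highest reached 124 and 163 UMIs per 10000. Kl was spread evenly by comparison, with 20.4% of its UMIs in the 10 highest ULI cells and 12.7% in those of ULC. The 10th and 90th percentiles of Enpp2 in deep cells were 437 and 901 UMIs per 10000 in ULI, 240 and 914 in ULC, and 11.5 and 684 in control. Cdkn1c, a cell cycle inhibitor, had a UMI in 82.0% of deep ULI, 65.5% of deep ULC and 42.9% of deep control cells.

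The share of genes 2-fold lower in ULI moved little with the cells kept. Without the barcodes that held 3 markers of another class, 166 ULI, 842 ULC and 10 control cells were left, and 304 of 2627 genes were 2-fold lower in ULI than in ULC. This was 11.6% of the genes measured. In deep cells alone, a choice made after seeing the data, 568 of 4651 genes (12.2%) were 2-fold lower in ULI and 70 higher.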

How the data were processed

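The values are UMI counts, which the authors deposited without normalization as 1 matrix of genes by barcodes. The submitters' processing notes name CASAVA 1.8, UMI-tools, Seurat and the mouse genome build mm10, while aligner and annotation were not given in the sources used here. The records name different platforms (10X, Drop-seq and BD Rhapsody), and barcodes carry serial names, so barcodes shared between libraries could not be counted. The table has 28676 genes, 14876 barcodes and 17428194 UMIs in ULI, 12768983 in ULC and 27019650 in control.

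Counts of plexus cells were summed per library and given as CPM with exact 95% Poisson intervals. Ratios carry exact conditional binomial intervals, all for counting error only, and a count of 0 was set to 3 for bounds. With 1 library per condition no test across libraries was made, and a gene was called by size: at least 2-fold apart with at least 100 UMIs in both libraries together. List medians used genes with at least 20 UMIs. Named genes were up to 6 of a list by summed UMIs with any 2-fold apart, the 10 highest and lowest ratios, and the 15 with the largest ratio to other cells. The members and lists were chosen with earlier results of these data known. Doublets were kept in the values given. Scrublet (in scanpy 1.11.5) called 4, 1 and 44 barcodes in ULI, ULC and control, too few in ULI and ULC to have worked, so the alternative without doublets left out the top 5% of scores there. Transcript GC came from the longest protein-coding transcript in mm10. Scaling alternatives used edgeR 4.0.16 and DESeq2 1.42.0 factors. Python 3.11.15 was used, and the calculations were tested on simulated data. Some genes of the lists are not reported here by name.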

Additional observations from a re-analysis of the deposited data

Results flagged for a closer look

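Among genes with at least 100 UMIs in plexus cells and in other cells, 3 were at least 2-fold higher in ULI plexus cells and 2-fold lower in the other cells of ULI than of ULC. These differences were not tested, since each side was 1 library. Ctf1, a cytokine of the interleukin 6 family, had a log2 ratio of ULI to ULC of 1.16 in plexus cells and -1.27 in other cells. Its levels were 99.3 CPM in ULI and 44.3 CPM in ULC plexus cells, beside 2.93 and 7.09 CPM in other cells. Defb11, a beta-defensin gene, was at 1.03 in plexus and -2.34 in other cells, with 706 and 345 CPM in plexus cells. Cfap43, a cilium gene, was at 1.02 and -1.03, with 45.3 and 22.3 CPM in plexus cells. In other cells with Ttr under 5% the log2 ratios were -0.73 for Ctf1, -0.43 for Defb11 and -0.97 for Cfap43, so the 3 were no longer 2-fold lower there.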

How the results depend on the processing

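No paired analysis was possible because each condition is 1 library. The plexus share was 2.87 to 4.35% in ULI and 15 to 19.3% in ULC under stricter cell rules: 4.35% and 15% with 500 genes, 2.87% and 19.1% with Ttr at 10%, 4.2% and 15% with 2 of Kl, Clic6 and Enpp2, 3.62% and 16.2% with no cilium gene, 3.56% and 19.3% with at most 20% mitochondrial UMIs, and 3.45% and 18.5% without cells holding markers of another class. It was 18.9% in ULC with 2000 UMIs, and in control 0.109% with no cilium gene, 0.217% without other-class cells and 0.933% with no cilium limit. Thinning left few genes above 100 UMIs.

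Genes 2-fold higher in ULI than ULC (87) numbered 24 after thinning, 53 with TMM, 49 with totals free of Ttr, mitochondrial and ribosomal genes, 316 by the mean over cells, 268 less the ratio in other cells, 221, 12 and 1177 at 50, 500 and no minimum UMIs, and 50 at low GC. Lower genes (676) numbered 256 with no cilium gene, 304 without other-class cells, 64 thinned, 98 less other cells, 1144, 119 and 2613 at these minima, and 39 at low GC. In ULI against control, higher genes (236) numbered 94 with Ttr at 10%, 131 without other-class cells, 18 thinned, 402 by the mean over cells, and 543, 20 and 1097 at the minima. Lower genes (149) numbered 78, 68, 8, 231, 353, 11 and 1965 under the same settings, 235 with no cilium limit and 33 at low GC. In ULC against control, higher genes (722) numbered 135 with no cilium gene, 326 without other-class cells, 44 thinned, 1097 by the mean over cells, 459 less other cells, 1115, 78 and 1320 at the minima, and 229 at low GC. Lower genes (356) numbered 229 with at most 20% mitochondrial UMIs, 56 thinned, 559 by the mean over cells, 744 less other cells, 719, 53 and 2051 at the minima, and 174 at low GC. The settings with no cilium limit, 2000 UMIs and low GC were chosen after seeing the data.

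Of 58 named genes 2-fold apart between ULI and ULC, 33 kept their direction once the ratio in other cells was subtracted. With other cells of Ttr under 5%, chosen after seeing the data, 36 did. With all other cells the ratio turned to 3.63 for Folr1, 2.60 for Aqp1, 0.99 for Clu, 2.69 for Ace, 1.25 for Slc12a4, 0.47 for Slc4a2, 1.29 for Trpv4, 1.94 for Fxyd1, 0.54 for Slc2a1, 1.47 for Slc16a8, 0.85 for Fosb, 1.40 for Mt3, 0.27 for Ifi27, 2.68 for Lbp, 2.95 for Creb3l1, 0.53 for Sdhb, 0.35 for Cox4i1 and Uqcrc1, 0.14 for Cox7c, 1.34 for Gpx3, 4.29 for Gpx4, 2.43 for Tekt1, 1.08 for Pltp, 0.16 for Lrp1, 0.22 for Fdft1, and a median of 0.48 for metallothioneins. Against control it turned to -1.08 in ULI and -3.13 in ULC for Kl, 0.59 in ULI for Mia and -0.18 in ULC for Krt18. Elsewhere Klf6 turned to 0.23 by the mean over cells, Pigc and Rab4a to -0.35 and -0.57 thinned, Cfap43 to -0.55 with Ttr at 10%, and metallothioneins in ULI against control to a median of 1.35 without other-class cells. The causes were not tested.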
